A study of Drosophila melanogaster with 4 samples.

Results

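The 34 genes of *Drosophila melanogaster* whose FlyBase symbol starts with Gst were examined, out of 17023 genes in the count tables, with *GstE14*, which acts in ecdysteroid synthesis, left out. They were grouped by the class letter that follows Gst, which gave 11 genes in class D (delta), 13 in class E (epsilon), 3 in class O (omega), 1 in class S (sigma), 4 in class T (theta) and 2 in class Z (zeta). Poly(A)-selected RNA of whole ovaries was sequenced from females fed with yeast and dissected 1 to 3 days after eclosion. The genotypes were UAS-Dicer2;NosGAL4 > aramis RNAi and UAS-Dicer2;NosGAL4 > bam RNAi, with 2 libraries each. Both groups therefore carried the germline driver NosGAL4, whose control region comes from *nos*, and the UAS-Dicer2 transgene, which strengthens RNAi. The comparison asked how mRNA levels differ after germline depletion of *aramis* (symbol *ais* in the annotation), which encodes an RNA helicase of the DEAD-box family, with depletion of *bam* as the developmental control. Germ cells depleted of *bam* do not pass the stage of the cystoblast, the daughter of the germline stem cell, so the control is itself a mutant ovary, and driver-only ovaries were not analysed here.

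Glutathione transferases join the tripeptide glutathione to electrophilic compounds, which makes toxic molecules and products of lipid oxidation more soluble and easier to export. The delta and epsilon classes are largely an insect expansion and are best known for the handling of insecticides and plant compounds, while the omega, sigma, theta and zeta classes also occur in vertebrates. Delta and epsilon genes arose by tandem duplication and many of them lie side by side on the chromosome. Several are induced by the transcription factor Cnc, which Keap1 holds in check.

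Reads assigned to genes numbered between 12977013 and 16754980 per library. Pairs of values below give replicates 1 and 2 of *aramis* RNAi first, against replicates 1 and 2 of *bam* RNAi. Glutathione transferase genes took 0.251% and 0.201% of all counts against 0.136% and 0.209%. The targeted gene *ais* had normalised counts, which are counts divided by a library scaling factor, of 117 and 153 against 910 and 323 (log2 fold change -2.19, DESeq2 adjusted p = 0.00186). *bam* itself had 50.3 and 72.7 against 60.0 and 70.4 (DESeq2 adjusted p = 0.948), so this gene did not separate the groups and, with no driver-only ovaries, gave no check of the label. Ovary markers were present. The 9 germline markers summed to 16399 and 15252 normalised counts against 33653 and 50649, and 6 of them fell. *piwi* made up the largest part of these sums, at 10349 and 8737 against 12748 and 22142, without passing the test (log2 -0.87, DESeq2 adjusted p = 0.155). The median log2 fold change of the list was -2.04, and only *osk* was fitted above 0 (log2 0.81, DESeq2 adjusted p = 0.495). The 10 markers of ovarian somatic cells summed to 40789 and 45276 against 34158 and 31144, and *tj* was the only one of them that passed the test, in the direction of lower. *Fas3* made up the largest part of these sums, at 22566 and 27521 against 14267 and 13811. It did not pass the test (log2 0.83, DESeq2 adjusted p = 0.128), and the fitted log2 fold change was above 0 for 6 of the 10. Marker lists of other tissues also moved. The sums were 41168 and 44170 against 4202 and 6334 for 5 hemocyte markers, 738856 and 707495 against 268521 and 213365 for 7 muscle markers, and 15921 and 6936 against 3435 and 2599 for 5 fat body markers. Of these lists, 4, 5 and 2 genes rose, respectively, and none fell at an unadjusted p under 0.05 or with edgeR, which called 4, 4 and 2 higher. Gut markers were low and uneven, at 35.9 and 1212 against 3.16 and 83.3 over 8 genes, 3 of which were at or under 3 counts in every library, including the lysozyme genes *LysB* and *LysD*. Of the 4 gut markers with an adjusted p, 3 rose (*Jon25Biii*, *Amy-p* and *Mal-A1*). With edgeR, 3 gut markers were higher and 1 was lower. *Jon25Biii* had 11.3 and 1097 normalised counts against 0 and 4.29, so its rise rested mostly on *aramis* RNAi replicate 2. *Jon65Aiv* went the other way, at 0 and 0 against 0 and 78.1 (log2 -7.66, DESeq2 adjusted p = 0.275). Malpighian tubule markers summed to between 122 and 174 in all libraries, where *Uro* had at most 3 counts while *NaPi-T* and *Ugt35B1* were present in every library. *Irk3* of that list fell, from 24.2 and 12.9 normalised counts in *bam* RNAi to 0 in both *aramis* RNAi libraries, also with edgeR. In bulk ovaries, more cells of a type and more RNA per cell cannot be told apart.

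Of the 34 genes, 30 had at least 10 counts over the 4 libraries and were fitted, and 29 of these received an adjusted p from DESeq2. At an adjusted p under 0.05, 8 genes rose in *aramis* RNAi (27.6% of the 29), where 9.85% of all 10049 genes with an adjusted p rose. No member fell, where 7.79% of all genes did (3.6% by over 4-fold), and the number lower was also 0 at an unadjusted p under 0.05 in DESeq2 and 0 with edgeR, adjusted or not. The genes that rose were *GstD1*, *GstD3*, *GstE3*, *GstE6*, *GstE7*, *GstE12*, *GstO3* and *GstT4*, with log2 fold changes between 1.48 and 2.30. Of these, *GstE6* and *GstE7* also exceeded a 4-fold limit, which comes from methods for bulk ovary RNA-seq that do not mention *aramis* RNAi and which 3.31% of all genes passed as higher. The fitted log2 fold change was above 0 for 26 of the 30 fitted members (86.7%) and for 47.2% of all fitted genes. Its median was 1.01 over the fitted members and -0.09 over the 11128 fitted genes. Both *aramis* RNAi values exceeded both *bam* RNAi values in 20 of the 30 members, a pattern found in 27.4% of all fitted genes, and the reverse held in 3 members, against 30.3% of all genes.

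**Figure D1:**
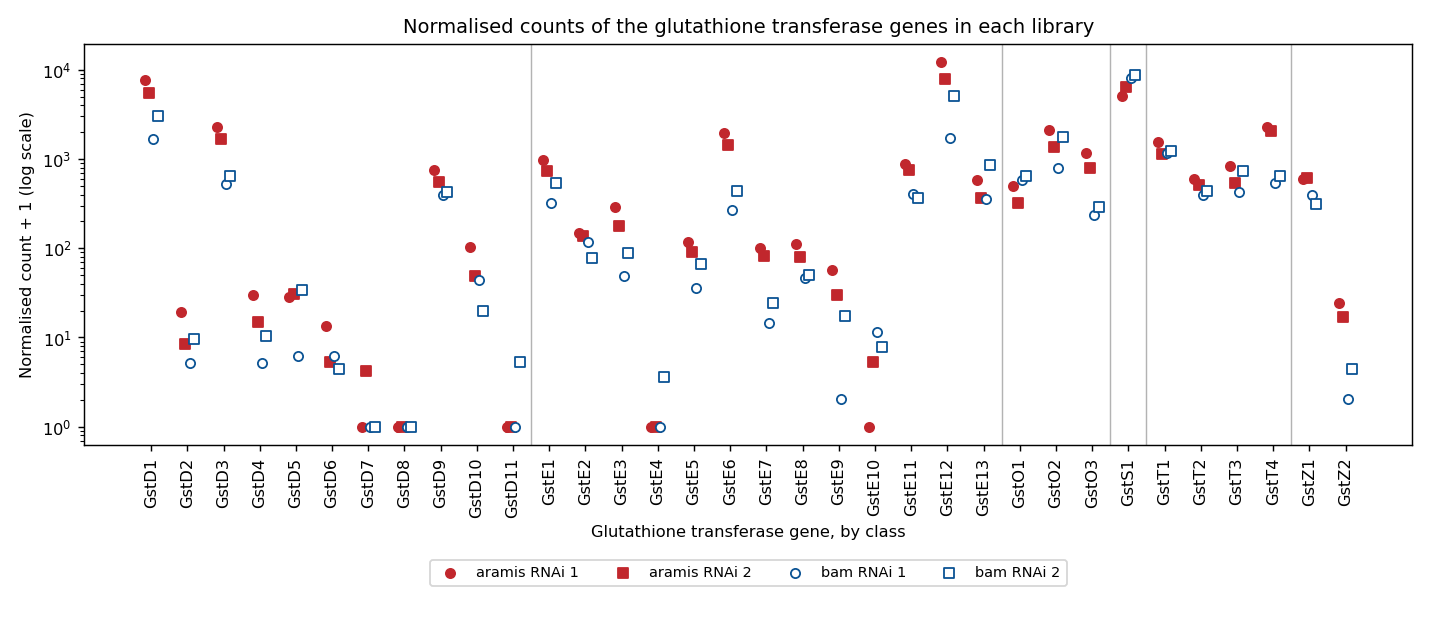
Normalised counts plus 1 (log scale) of each of the 34 glutathione transferase genes, ordered by class, with 1 point per library (filled red, *aramis* RNAi; open blue, *bam* RNAi). *GstE12*, *GstD1* and *GstS1* hold the highest counts, and *GstS1* is among the few genes with both *aramis* RNAi points below both *bam* RNAi points.

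The genes *GstD1*, *GstE12* and *GstS1* led the family in level. Per kilobase of transcript, which allows genes to be compared, the level of *GstD1* was 534 and 389.8 CPM per kb against 147 and 284, where CPM are counts scaled to the same total in every library. *GstE12* had 539 and 364 CPM per kb against 96.5 and 304. *GstS1* had 169 and 218 against 332 and 389. The order of these levels thus differed between groups. *GstS1* held rank 1 of the 34 genes in both *bam* RNAi libraries, but ranks 4 and 3 in *aramis* RNAi, where *GstE12* and *GstD1* shared ranks 1 and 2 and were closer to each other than their replicates were. At the other end, *GstD7*, *GstD8*, *GstD11* and *GstE4* had at most 5 counts in every library and were not fitted, and *GstD8* had 0 in all of them. Counting error alone allows up to 3 counts, or between 0.179 and 0.231 CPM, where none was seen.

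All 11 class D genes lie in 20.8 kb of chromosome 3R (12364776 to 12385624, dm6). Their levels did not follow the order of the genes. *GstD1* (12367817 to 12369268, minus strand), the most abundant member and an enzyme that can break down DDT, lies next to *GstD2*, which had 18, 7, 4 and 10 counts in the 4 libraries, and *GstD2* lies next to *GstD3* (12373068 to 12373813, plus strand), the runner-up. *GstD1* had 7740 and 5454 normalised counts against 1691 and 3035. The groups did not overlap, and the level rose 2.79-fold (log2 1.48, SE 0.45, DESeq2 adjusted p = 0.0113). *GstD3*, whose transcript here was annotated as a single exon of 746 nt, had 2290 and 1681 against 530 and 644. It rose 3.38-fold (log2 1.76, SE 0.43, DESeq2 adjusted p = 0.000898), and its *bam* RNAi replicates were closer to each other than those of *GstD1*. *GstD1* held between 63.1% and 72.6% of the class D counts of a library and *GstD3* between 15.4% and 21.6%. *GstD9*, the third gene by level, had 756 and 550 against 398 and 423, which separated the groups without passing the test (log2 0.67, SE 0.45, DESeq2 adjusted p = 0.313). The other 5 fitted class D genes (*GstD2*, *GstD4*, *GstD5*, *GstD6* and *GstD10*) had at most 99 counts in any library and SEs up to 1.78, so that differences of the size seen in *GstD1* were not detectable at this depth. Class D genes are alike in sequence and reads shared between them could have been dropped or misassigned. This was not tested.

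**Figure D2:**
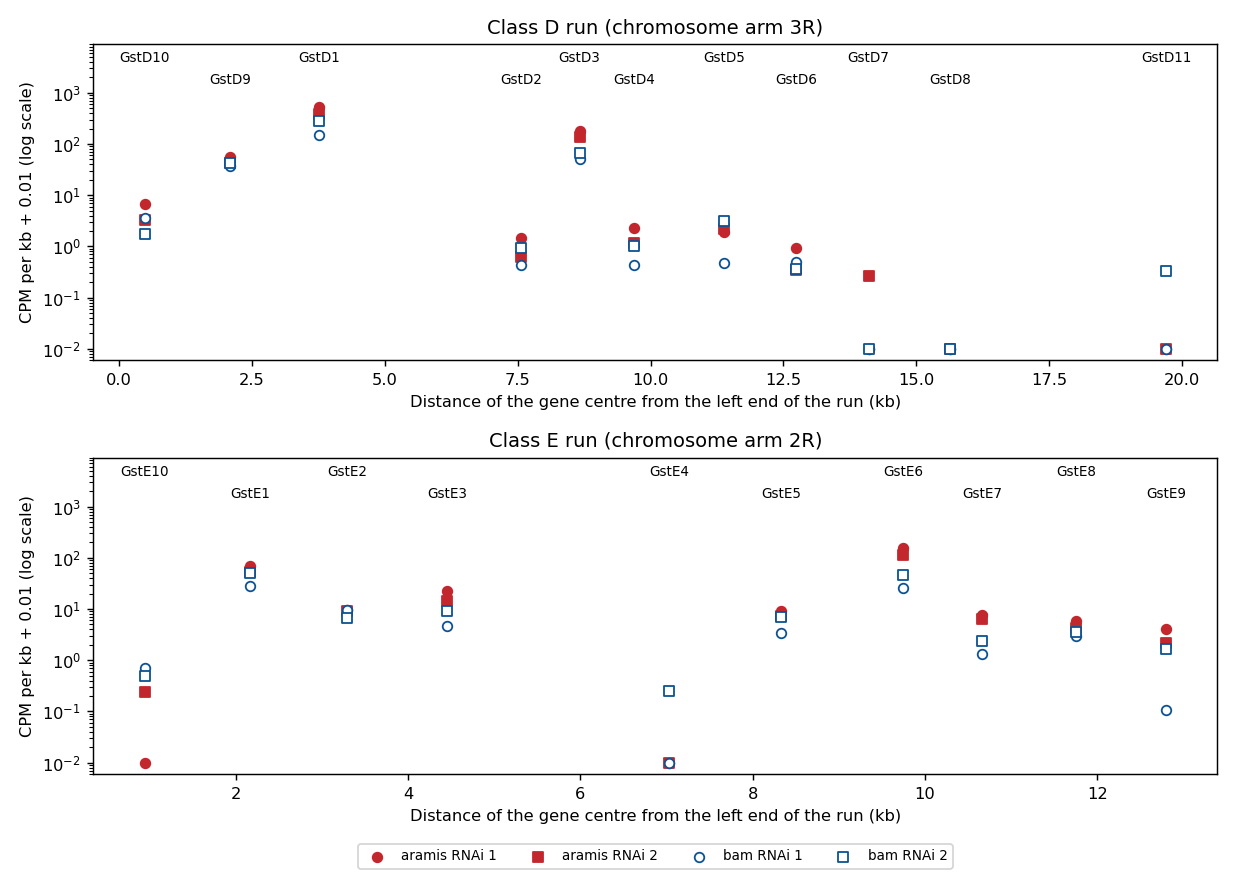
Level of each gene (CPM per kb of transcript plus 0.01, log scale) against its distance in kb from the left end of the run, for the 11 class D genes on 3R and the 10 class E genes that lie together on 2R, with 1 point per library (filled red, *aramis* RNAi; open blue, *bam* RNAi). The level does not follow the position in either run, since *GstD2* lies far below its neighbours *GstD1* and *GstD3*, and *GstE6* lies above *GstE5* and *GstE7*.

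Of the 13 class E genes, 10 lie in 13.2 kb of chromosome 2R (18396638 to 18409835) and the other 3, *GstE11*, *GstE12* and *GstE13*, lie apart on the same arm. The run included 3 of the 4 class E genes that rose. *GstE6* (18406011 to 18406761, plus strand, 1 exon), its most abundant gene in *aramis* RNAi, had 1975 and 1445 normalised counts against 264 and 442. It rose 4.84-fold (log2 2.27, SE 0.46, DESeq2 adjusted p = 4.13e-05), and its lower *aramis* RNAi value was more than 3 times its higher *bam* RNAi value. *GstE7*, which follows it on the same strand, had 100.6 and 81.2 against 13.7 and 23.2 (log2 2.30, SE 0.75, DESeq2 adjusted p = 0.0183). *GstE3* had 286 and 176 against 48.4 and 86.7 (log2 1.77, SE 0.59, DESeq2 adjusted p = 0.0202). Between these genes, *GstE4* was nearly silent, at 0 counts in 3 libraries and 3 in the other, and *GstE5* had 117 and 90.8 against 34.7 and 66.1 without passing the test. *GstE1*, which exceeded *GstE6* in both *bam* RNAi libraries, had 975.5 and 726 against 319.9 and 540.1 (log2 0.98, DESeq2 adjusted p = 0.133). *GstE2*, *GstE8* and *GstE9* were likewise separated between groups without passing the test. Of these, *GstE9*, which overlaps *imd* on the other strand, had 54 and 27 counts against 1 and 19. *GstE10*, which overlaps *GstE1* on the other strand, was the only gene of the family with a fitted decrease of more than 2-fold, and it had only 0 and 4 counts against 10 and 8.

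Outside the run, *GstE12* (24766718 to 24768172, minus strand, 3 exons), which overlaps *CG3894* on the other strand, held between 51.6% and 69.9% of the class E counts. It had 12162 and 7928 normalised counts against 1727 and 5054. It rose 2.96-fold (log2 1.57, SE 0.53, DESeq2 adjusted p = 0.0227), although the *bam* RNAi replicates differed from each other almost as much as the groups did. *GstE11* had 881 and 752 against 405 and 369 (log2 1.08, SE 0.43, DESeq2 adjusted p = 0.0637). *GstE13* had 586 and 361 against 357 and 858, and its groups overlapped. It overlaps *CG18659* on the other strand.

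**Figure D3:**
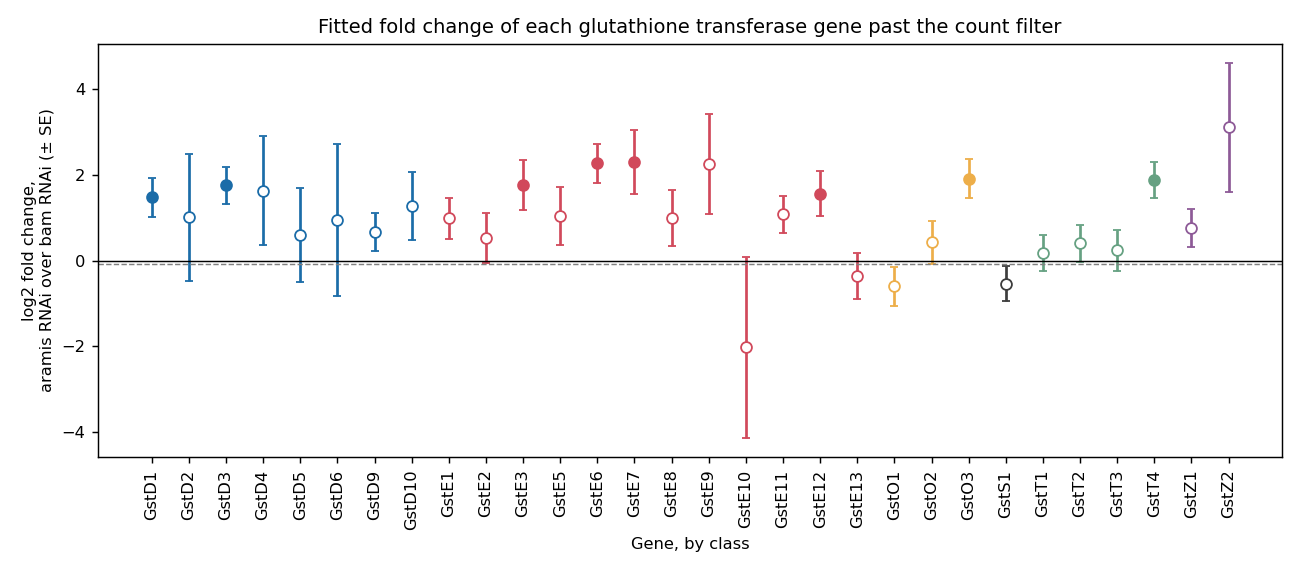
Fitted log2 fold change of *aramis* RNAi over *bam* RNAi with its SE for the 30 fitted glutathione transferase genes, coloured by class, where filled points passed an adjusted p of 0.05 in DESeq2 and the dashed line is the median of all fitted genes at -0.09. The 8 filled points lie between 1.48 and 2.30, while *GstE10*, *GstE13*, *GstO1* and *GstS1* lie below 0 with open points.

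In classes T and O, 1 gene each rose and the others did not pass the test. Differences between the genes of a class were not tested. Theta enzymes are the class most like the ancestral form. *GstT4* (chromosome X, 13404749 to 13409323, plus strand, 4 exons) had 2294 and 2072 normalised counts against 539 and 645. It rose 3.69-fold (log2 1.88, SE 0.41, DESeq2 adjusted p = 0.000201), and both groups were tight. *GstT1*, the class T gene with the highest level over the 4 libraries per kilobase, had 1558 and 1152 against 1171 and 1236, and the groups overlapped (log2 0.17, 95% interval -0.65 to 0.99, DESeq2 adjusted p = 0.821). *GstT2*, its neighbour on 2R, which overlaps *CG12926* on the other strand, had 591 and 515 against 399 and 438, and *GstT3* had 839 and 541 against 431 and 733. Within the class, *GstT4* made up 43.4% and 48.4% against 21.2% and 21.1%, while *GstT1* made up 29.5% and 26.9% against 46.1% and 40.5%. These shares do not depend on the scaling of the libraries. The widest 95% Wilson interval of a share within class T spanned 3.97 percentage points, which, like all such intervals here, covers counting error only.

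The 3 omega genes lie within 6.0 kb of chromosome 3L, beside *se*, the omega gene that makes a precursor of the red eye pigment and that *GstO2* overlaps on the other strand. *GstO3* (8518885 to 8520295, plus strand) had 1168 and 799 normalised counts against 234 and 289. It rose 3.77-fold (log2 1.91, SE 0.45, DESeq2 adjusted p = 0.000651), without overlap. *GstO1* had 494 and 317 against 586 and 644, so both *aramis* RNAi values were the lower ones, but it did not pass the test (log2 -0.60, SE 0.46, DESeq2 adjusted p = 0.398). *GstO2*, the most abundant of the 3, had 2126 and 1348 against 797 and 1782, and the groups overlapped (log2 0.43, SE 0.50, DESeq2 adjusted p = 0.599). *GstO3* thus went from 14.5% and 10.6% of the class O counts in *bam* RNAi to 30.8% and 32.4% in *aramis* RNAi, and *GstO1* from 36.3% and 23.7% to 13.0% and 12.9%. *se* itself had 16.4 and 3.21 normalised counts against 27.4 and 20.6. Its groups did not overlap, but it did not pass the test (log2 -1.28, SE 1.23, DESeq2 adjusted p = 0.515).

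*GstS1*, the only sigma gene, is known as an abundant protein of the indirect flight muscle (2R, 17093246 to 17099501, minus strand, 5 exons in its longest transcript of 1764 nt). It had 5135 and 6374 normalised counts against 7993 and 8698. The *aramis* RNAi values were the lower pair except with germline marker scaling, but the difference did not pass the test (log2 -0.54, 95% interval -1.32 to 0.25, DESeq2 adjusted p = 0.380). The muscle markers summed to more in *aramis* RNAi. The largest part of that sum was *Act57B* (509118 and 426645 against 109009 and 151801), while the groups overlapped for *up* and *Tm2*. A link between muscle content and the level of *GstS1* was not tested. Of the zeta genes, a class that acts in the breakdown of tyrosine in mammals, *GstZ1* had 590 and 606 against 389 and 316 (log2 0.76, SE 0.44, DESeq2 adjusted p = 0.234). *GstZ2* had 23 and 15 counts against 1 and 4 (DESeq2 adjusted p = 0.138). Neither zeta gene passed the test while both separated the groups.

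The classes were then compared through the sum of the normalised counts of their genes. Class D summed to 10975 and 7792 against 2681 and 4180, which was 2.74-fold higher (log2 1.45, pooled SD between replicates 0.40). Class E summed to 17395 and 11807 against 3344 and 7591, 2.67-fold higher (log2 1.42, pooled SD 0.65). Class T was 1.71-fold higher (5282 and 4279 against 2540 and 3053) and class Z 1.74-fold higher (614 and 622 against 390 and 319). In these 4 classes the groups did not overlap. Class O overlapped, at 3787 and 2465 against 1616 and 2714. Class S, a single gene, was 1.45-fold lower, a direction that turned with germline marker scaling (log2 1.46). With 2 libraries against 2, an exact two-sided permutation test of a class sum cannot give a p below 0.333, which is what the separated classes gave.

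Shares within a library need no scaling between libraries, but a class can lose share because another gains it. Of all glutathione transferase counts, class S held 11.9% and 19.1% against 43.1% and 32.8%. Class E held 40.3% and 35.4% against 18.01% and 28.6%, and class D 25.4% and 23.4% against 14.4% and 15.7%. By counts, class S was thus the largest class in both *bam* RNAi libraries and class E in both *aramis* RNAi libraries. With counts divided by transcript length, class E was still the largest in both *aramis* RNAi libraries, and class S was the largest in *bam* RNAi replicate 1 (29.2%) but not in replicate 2, where it held 21.6%, class D 22.4% and class E 29.4%. The mean share of class D was 9.30 percentage points higher in *aramis* RNAi, that of class E 14.5 points higher, and that of class S differed by -22.4 points. Classes T, O and Z overlapped, with mean shares of 12.5% ± 0.43, 8.08% ± 0.97 and 1.64% ± 0.31 (SD, n = 2) against 12.6% ± 1.55, 9.46% ± 1.07 and 1.65% ± 0.64 (SD, n = 2). No 95% Wilson interval of a class share was wider than 1.46 percentage points. Of the 15 ratios of a class to another within a library, 9 separated the groups (smallest exact permutation p = 0.333, 0.556 after Benjamini-Hochberg adjustment over the 15). The ratios share class sums and are not independent. Of all fitted genes, 27.4% separated the groups as higher and 30.3% as lower, so the count of 9 says little by itself. Among the ratios that separated, class D over class S had log2 ratios of 1.10 and 0.29 against -1.58 and -1.06. The ratio of class D to class E did not separate them, at -0.66 and -0.60 against -0.32 and -0.86.

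**Figure D4:**
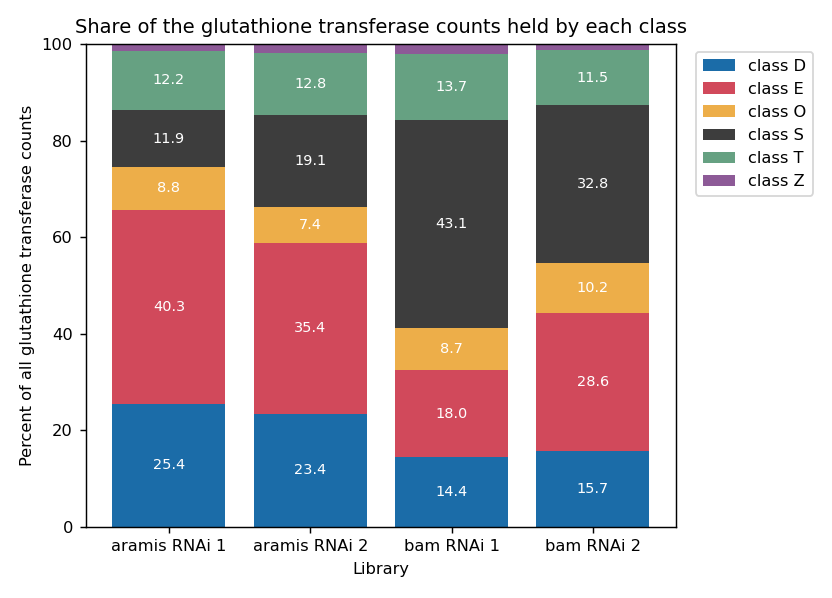
Percent of all glutathione transferase counts held by each class in each library. Class S holds 43.1% and 32.8% in the *bam* RNAi libraries and 11.9% and 19.1% in the *aramis* RNAi libraries, where classes D and E are larger.

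The size and number of these differences depended on the libraries compared. Normalised counts were higher in *bam* RNAi replicate 2 than in replicate 1 for 24 of the 30 fitted members, with a median log2 ratio of 0.52 against 0.03 over all fitted genes, and higher in *aramis* RNAi replicate 1 than in replicate 2 for 26 of 30, with a median of 0.47 against 0.00. The transcripts of the family were short, at a median of 878.5 nt against 1847 nt over all fitted genes (longest annotated transcript). After a correction of each library for length, the same 8 genes were past the threshold. Without *aramis* RNAi replicate 1, the number of genes past the threshold went from 8 to 0, with 4 higher at an unadjusted p under 0.05 in DESeq2, and without *aramis* RNAi replicate 2 it went to 2 (*GstE6* and *GstO3*). Each of these fits takes its spread from the *bam* RNAi libraries alone and assumes that the single *aramis* RNAi library varies like them. The log2 fold changes of the 8 genes remained between 1.23 and 2.16 in the former and between 1.73 and 2.501 in the latter. Leaving out an *aramis* RNAi library also cut the calls over all genes, from 990 higher to 85 and 233. Without *bam* RNAi replicate 1, 7 members were past the threshold, with *GstE3* and *GstE7* lost and *GstE11* gained, and without *bam* RNAi replicate 2 there were 11, in fits that take their spread from the *aramis* RNAi libraries.

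*GstD3*, *GstE6*, *GstO3* and *GstT4* remained past the threshold with edgeR, with each of 4 other scalings, with each other filter, with the length correction and with a block for the replicate number. The other 4 genes (*GstD1*, *GstE3*, *GstE7* and *GstE12*) were not past it with total-count scaling, with scaling to the ovarian soma markers, or with that block, so that 4 genes were higher in each of those fits. Their log2 fold changes with the block were 1.52, 1.79, 2.33 and 1.73, with the soma markers 1.47, 1.78, 2.29 and 1.497, and with total-count scaling 1.10, 1.39, 1.92 and 1.17, in that order. With edgeR 6 were higher, without *GstD1* (edgeR adjusted p = 0.0521) and *GstE12* (edgeR adjusted p = 0.0674), where 639 of all genes were higher. Over the 10 alternatives other than leaving out a library, the adjusted p of *GstD1* ran from 1.33e-13 to 0.115 and that of *GstE12* from 3.86e-11 to 0.161. Relative to the germline markers, whose levels fell, 28 members were higher, but so were 6970 of all genes, and 44 of all genes were lower. *GstS1* turned to 1.46, *GstO1* to 1.39 and *GstE13* to 1.70, and the median of all genes moved by 1.99 on the log2 scale. With total-count scaling that median moved to -0.45 from -0.09, and 24 of the 30 fitted members, against 26, were above 0, since *GstT1* and *GstT3* turned to -0.20 and -0.14. The sums of the hemocyte, fat body and muscle markers were higher in both *aramis* RNAi libraries. Not every gene on these lists followed its sum. *Lpin* of the fat body list had a log2 fold change of -0.48, and the muscle markers *up* and *Tm2* overlapped between groups. The sums of the gut markers overlapped between groups, at 35.9 and 1212 against 3.16 and 83.3. The part of these tissues in the differences between classes was not tested.

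**Figure D5:**
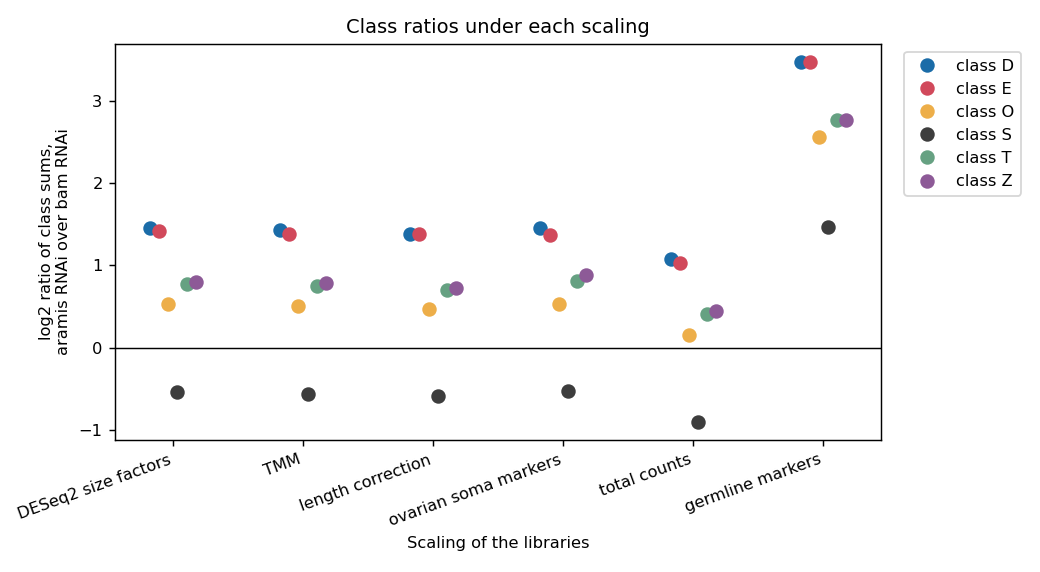
Log2 ratio of each class sum, *aramis* RNAi over *bam* RNAi, under 6 ways of scaling the libraries, with 1 point per class. Classes D and E lie highest and class S lowest under each scaling, and class S lies below 0 except with the germline markers (1.46), where all classes move up together.

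Other genes of detoxification were read from lists. Cytochrome P450 enzymes of families 4, 6, 9 and 12 carry out the oxidation that often precedes conjugation. Of the 45 with an adjusted p, 21 rose and none fell, where 9.85% of all genes rose and 7.79% fell. At an unadjusted p under 0.05, 1 was lower, and with edgeR 17 were higher and 0 lower. The median log2 fold change was 1.39 over the 51 fitted. *Cyp9f2* had 6282 and 5037 normalised counts against 884 and 1516 (log2 2.24, DESeq2 adjusted p = 2.47e-05). *Cyp6a2*, linked to insecticide resistance, and *Cyp6w1* had log2 fold changes of 2.65 and 3.48. UDP-glycosyltransferases add a sugar in place of glutathione. Of 22 with an adjusted p, 13 rose and 1 fell, *Ugt305A1*, named after its value was seen (log2 -3.48), and the median over the 24 fitted was 1.49. *Ugt301D1* had 9815 and 7906 against 549 and 759 (log2 3.76, DESeq2 adjusted p = 3.41e-16), and *Ugt36E1* and *Ugt49B1* had log2 fold changes of 2.32 and 2.28.

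No gene on the lists of glutathione synthesis and of the Cnc pathway rose, where 9.85% of all genes did. Only 4 and 3 genes of these lists had an adjusted p, so the absence of calls says little by itself. *Gclc*, the catalytic subunit of the enzyme that limits glutathione synthesis, had 1214 and 1619 normalised counts against 911 and 619 (log2 0.89, DESeq2 adjusted p = 0.152). Its modifier subunit *Gclm* had 330 and 426 against 448 and 447. None of the 5 genes of glutathione synthesis and turnover passed in DESeq2 (2 higher at an unadjusted p under 0.05) or edgeR. None of 6 other genes whose products have a glutathione transferase fold or are membrane-bound transferases passed in DESeq2 (1 lower at an unadjusted p under 0.05) or edgeR. Of the latter, the microsomal transferase gene *Mgstl* had 453 and 411 against 264 and 289, which separated the groups (log2 0.65, DESeq2 adjusted p = 0.348). *cnc* had 1942 and 2569 against 3180 and 1836, and its groups overlapped (log2 -0.15, DESeq2 adjusted p = 0.851). *Keap1* had 200.2 and 181 against 215 and 409 (log2 -0.71, DESeq2 adjusted p = 0.373). *maf-S*, which encodes the partner of Cnc on DNA, fell, from 503 and 125 in *bam* RNAi to 83.2 and 69.5 in *aramis* RNAi (log2 -2.04, DESeq2 adjusted p = 0.0168). Of 10 fitted thioredoxin, peroxidase and related antioxidant genes, 2 rose in DESeq2, where 9.85% of all genes did, and 1 rose with edgeR. The 2 in DESeq2 were the catalase gene *Cat* (13171 and 10903 against 2669 and 6425, DESeq2 adjusted p = 0.0271) and the extracellular superoxide dismutase gene *Sod3* (5508 and 4258 against 1002 and 1431, DESeq2 adjusted p = 0.000107).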

How the data were processed

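Per the labels, libraries were made from poly(A)-selected RNA with a directional kit after 13 minutes of fragmentation. The authors deposited raw counts of reads per gene, 1 table per library without a header and unscaled. The submitters' processing notes name HISAT2 2.1.0, featureCounts 1.4.6, DESeq2 1.24.0 and dm6. Settings, strand use and annotation release are not given in the sources used here, so overlapping and near-identical genes are uncertain.

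Symbols, positions and longest transcripts came from Ensembl release 115 (dm6), which matched all 34 members. Marker genes whose symbols found no identifier were not used here. Genes with at least 10 counts over the 4 libraries were tested with DESeq2 (version 1.42.0) in R 4.3.3, with size factors from the median of ratios, only the group in the model and Benjamini-Hochberg adjustment over all genes, with a threshold of 0.05. Scripts were tested on simulated data. Alternatives were edgeR (version 4.0.16), other scalings, filters, a length correction, the replicate number as a block and leaving out libraries. The germline and soma scalings were size factors of those marker lists. The labels do not say that libraries of a group came from separate animals, so p-values measure the spread between libraries, which may be technical. Chi-square per degree of freedom between replicates was 75.2 and 212.0, so no library was a repeat of another. Values per library are given for members past the threshold, the highest per kilobase in each class and those at least 2-fold lower, and others were added after their values were seen. The members and lists were chosen with earlier results of these data known.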

Additional observations from a re-analysis of the deposited data

How the results depend on the processing

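The number of members higher in *aramis* RNAi was 8, where 990 of all genes were higher. The number of members became 4 with total-count scaling (543 of all genes), 4 with ovarian soma marker scaling (528), 4 with a replicate block (438) and 28 with germline marker scaling (6970). Leaving out each library in turn gave 0 to 11. No alternative put a member past the threshold as lower (2 were lower at an unadjusted p under 0.05 with total-count scaling). Deviations of same-numbered libraries had a correlation of -0.16 over 11128 genes, so they were not treated as pairs. With the pairing crossed, chosen after seeing the data, 10 members were higher, as were 1596 of all genes. The block turned no member's direction. Class log2 ratios with germline marker scaling were 3.47 (D), 3.47 (E), 2.56 (O), 1.46 (S), 2.77 (T) and 2.77 (Z). With total-count scaling they moved to -0.90 (S), 0.40 (T) and 0.44 (Z). Leave-one-out ranges were 1.17 to 1.81 for class D, 0.94 to 2.13 for E, 0.19 to 0.95 for O, -0.70 to -0.39 for S, 0.61 to 0.92 for T and 0.66 to 0.95 for Z. Leave-one-out differences in class share, in percentage points, were 8.28 to 10.3 for D, 9.26 to 19.8 for E, -2.14 to -0.62 for O, -27.5 to -17.3 for S, -1.15 to 1.04 for T and -0.46 to 0.44 for Z. With counts per kilobase, the differences for O and T became -2.69 and -1.96 points. Directions reversed with germline marker scaling for *GstS1* (1.46), *GstO1* (1.39) and *GstE13* (1.70), and with total-count scaling for *GstT1* (-0.20) and *GstT3* (-0.14). They also reversed without *aramis* RNAi replicate 1 for *GstT1* (-0.038) and *GstT3* (-0.082), without *bam* RNAi replicate 1 for *GstO2* (-0.031), *GstT3* (-0.082) and *GstD5* (-0.18), and without *bam* RNAi replicate 2 for *GstE13* (0.40). The log2 fold change of *GstT1* ran from -0.038 to 0.39 and that of *GstO2* from -0.031 to 1.12 over the leave-one-out fits. None of these 7 genes had passed the test. The cause was not tested. Depth limits the members with few counts, such as *GstD2*, *GstD6*, *GstE10* and *GstZ2*, whose SEs ran from 1.48 to 2.12.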
